A study of Caenorhabditis elegans with 12 samples.

Results

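The insulin-like peptide genes of Caenorhabditis elegans encode small secreted hormones related to insulin. They were taken as every gene of the deposited count table whose WBcel235 name is ins followed by a number, together with daf-28, and 39 of the 46926 genes met this rule. The members lie on chromosomes I (10 genes), II (15), III (5), IV (4), V (3) and X (2). Whole N2 worms, the wild-type strain, were compared in 3 groups of 4 libraries: worms on the solvent DMSO, on 100 µM bromhexine and on 200 µM genipin. Bromhexine is a mucolytic drug and genipin a plant compound known as a crosslinker of proteins. All 3 groups were hermaphrodites moved as synchronized young adults and kept for 48 h on plates that also held FUDR and, as food, OP50-1 Escherichia coli with streptomycin. FUDR is an inhibitor of DNA synthesis that is used to keep a population free of progeny, and the drugs were dissolved in DMSO. The labels place all 12 libraries in 1 batch. They do not state whether replicates came from separate cultures, and every p below therefore reflects a spread among libraries that could be purely technical.

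Most insulin-like peptides are made in neurons, in the intestine or in the epidermis, and act as hormones on DAF-2, the single insulin and IGF receptor of the worm. Agonists keep DAF-2 active, and its signal through the kinases AGE-1, PDK-1 and AKT-1 holds the transcription factor DAF-16 out of the nucleus. Antagonists do the reverse, and the balance is known to set dauer entry, lifespan and stress resistance. Members sit in genomic clusters, are short, and are mostly expressed in few cells, so that whole-worm RNA holds little of each.

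The libraries held 20.3 to 28.1 M counts, and 28 to 33 of the 39 members had a count in any 1 library. In genipin replicate 1 the cytochrome P450 gene cyp-35B3, at 0 in all 4 DMSO libraries, had 236 counts, which is 2.88% of its mean level with bromhexine in CPM (counts per 1e6 library counts, scaled by TMM). It had 9 to 22 counts in the other 3 genipin libraries, and the calls that involve genipin were repeated without replicate 1. All markers listed for neurons (12), epidermis (8), body wall muscle (6) and germ line (6) passed the low-count filter.

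Of the 39 members, 20 passed the low-count filter and were tested in edgeR's quasi-likelihood fit. The median count of a tested member in a library was 20, at which counting error alone is 22.4%. The median standard error of their log2 fold changes was 0.35 for bromhexine against DMSO, against 0.13 over all 13695 genes tested. The genes ins-9, ins-16 and ins-32 had 0 counts in all 12 libraries, which over 283 M counts allows a level of up to 0.0106 CPM (3 counts, counting error only). The other 16 untested members had between 2 (ins-8, ins-13 and ins-15) and 100 (ins-29) counts over the 12 libraries, and 7 of them had fewer than 20. No fold change is given for these 19 genes.

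In DMSO 3 genes stood above the rest of the family. Per kb of exon, ins-19 (WBGene00002102, chromosome II, start 3126037, end 3126441, minus strand) stood first at 35.3 ± 10.3 CPM per kb (SD, n = 4). It was followed by ins-34 (WBGene00002117, IV, start 14106574, end 14107737, plus strand) at 16.2 ± 3.54 and ins-17 (WBGene00002100, III, start 4476918, end 4477572, minus strand) at 8.88 ± 0.689 CPM per kb. The 4 libraries of ins-19 (24.2 to 48.4 CPM per kb) did not overlap those of ins-34 (11.7 to 20.2), and these did not overlap those of ins-17 (7.97 to 9.65). Then came ins-27 (3.04 ± 0.414) and the agonist gene ins-35 (2.86 ± 0.814), whose libraries overlapped each other and which both lay below every library of ins-17. The median over the 20 tested members was 1.58 CPM per kb in DMSO, against 10.8 over all tested genes, and only ins-19 (71.4th percentile) and ins-34 (56.4th) lay above the middle of all tested genes.

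**Figure D1:**
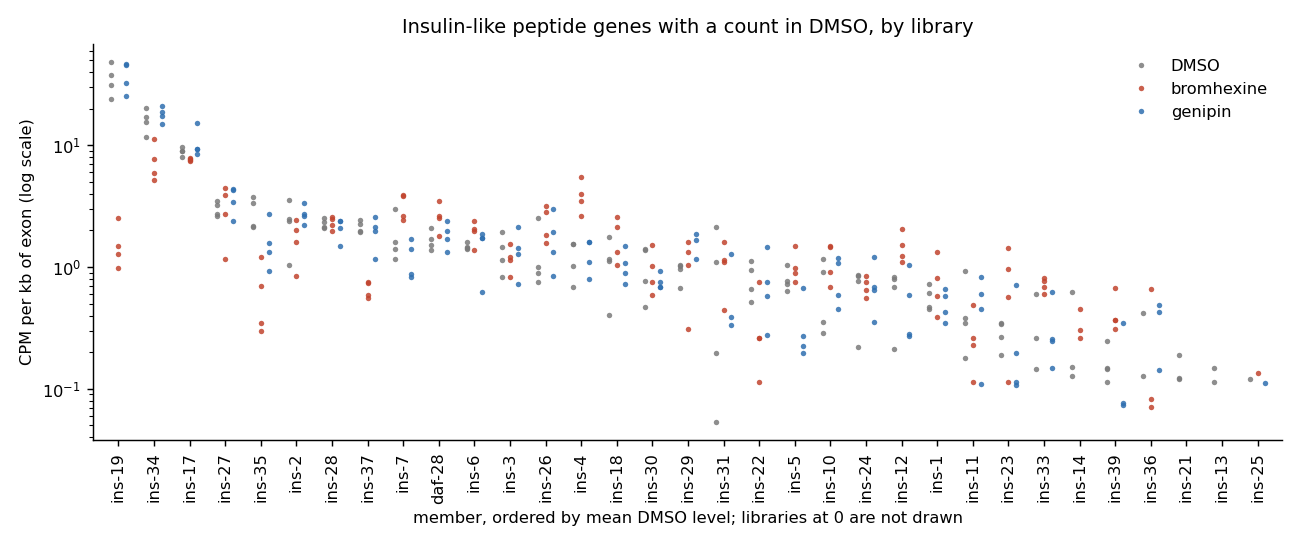
Level of each member that had a count in DMSO, in CPM per kb of exon on a log axis, ordered by the DMSO mean, with 1 point per library (grey DMSO, red bromhexine, blue genipin; libraries at 0 are not drawn). The bromhexine points of ins-19 lie between 0.984 and 2.53, below its 24.2 to 48.4 in DMSO, while most other members lie near or below 3 CPM per kb in all 3 groups.

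Worms on bromhexine were first set against worms on the solvent. The genes ins-19, ins-34, ins-35 and ins-37 fell and ins-4 rose, and the other 15 tested members did not pass an adjusted p of 0.05. These 5 are 25% of the tested members, where 40.8% of all tested genes were called, so the members were not called more often than genes at large. The median log2 fold change of the 20 was 0.17 (all tested genes 0.002), and 6 members had groups that did not overlap in CPM, against 35.9% of all genes. Less RNA per cell and fewer cells of a type cannot be told apart in whole worms.

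The largest difference among the members was that of ins-19. Its counts were 502, 195, 298 and 300 in DMSO replicates 1 to 4 and 9, 8, 12 and 24 with bromhexine. Every bromhexine library lay far below every DMSO library, with means of 0.568 ± 0.245 and 12.8 ± 3.73 CPM (SD, n = 4). On the log2 scale it was lower by a fold change of -4.45 ± 0.32 (SE), with a 95% interval of -5.12 to -3.78 and an adjusted p of 6.82e-08 in edgeR. In DMSO it supplied 22.2% to 36.5% of all counts of the family, and with bromhexine 1.26% to 3.01%. Its divergent neighbor ins-31 (plus strand, start 3127041, end 3127831), 599 bases away, had 22, 33, 3 and 1 counts in DMSO and 22, 7, 18 and 20 with bromhexine. The groups of ins-31 overlapped, with a log2 fold change of 0.31 ± 0.80 whose interval ran from -1.38 to 2.01.

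Among peptides that genetics in worms has shown to act as agonists of DAF-2 (daf-28, ins-3, ins-4, ins-6, ins-7 and ins-35), 1 rose and 1 fell of 6 tested. Over all tested genes 19% rose and 21.8% fell, and a list of 6 does not show a departure from that. The rise was that of ins-4 (WBGene00002087, II, start 5996366, end 5997008, plus strand), a neuronal agonist known to act against dauer formation with ins-6 and daf-28. It had 17, 9, 20 and 24 counts in DMSO and 45, 72, 46 and 40 with bromhexine. All 4 bromhexine libraries lay above all 4 of DMSO, at 2.27 ± 0.701 against 0.703 ± 0.248 CPM (SD, n = 4 each), and the log2 fold change was 1.68 ± 0.32 (adjusted p = 0.00105 in edgeR). Per kb of exon its mean moved from the 14th to the 3rd highest of the family. That place is not sharp: its bromhexine libraries (2.61 to 5.48 CPM per kb) overlapped those of ins-7 (2.43 to 3.90).

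The agonist gene that fell was ins-35 (WBGene00002118, V, start 20375536, end 20376302, plus strand), which is known to be made in the intestine. Its counts were 24, 32, 18 and 34 in DMSO and 9, 3, 6 and 3 with bromhexine. The groups did not overlap (1.09 ± 0.311 against 0.244 ± 0.16 CPM), and the log2 fold change was -2.18 ± 0.46 (adjusted p = 0.0019, edgeR). Of 7 intestinal markers tested 3 rose and 0 fell, where 19% of all tested genes rose and 21.8% fell. The esterase gene ges-1 had the largest value (log2 fold change 1.44 ± 0.08), act-5, elt-2, elt-7 and ifb-2 were not called (-0.22 to 0.12), and the summed level of the markers was 480 to 575 CPM in DMSO and 589 to 743 with bromhexine, with none at 0. The part of the intestine in the fall of ins-35 was not tested.

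The other 4 agonist genes were not called. The gene daf-28, expressed in the ASI and ASJ sensory neurons and known for its dauer phenotype, had 37, 36, 23 and 31 counts in DMSO and 52, 45, 31 and 51 with bromhexine. Its log2 fold change was 0.64 ± 0.25, with an adjusted p of 0.0558 in edgeR and of 0.047 in DESeq2, so the call depended on the tool. It was also called without DMSO replicate 2, bromhexine replicate 3 or genipin replicate 2 (adjusted p = 0.0412, 0.0317 and 0.0498, edgeR). The intestinal and neuronal agonist gene ins-7, known as a target that DAF-16 represses, had 36, 15, 13 and 13 counts in DMSO and 20, 36, 25 and 43 with bromhexine. Its log2 fold change was 0.83 ± 0.34 (adjusted p = 0.0632, edgeR), and without DMSO replicate 1, the highest of its group, it was 1.21 ± 0.35 (adjusted p = 0.0167). For ins-6 it was 0.39 ± 0.32 and for ins-3 -0.19 ± 0.37, with intervals of -0.28 to 1.07 and -0.97 to 0.60.

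The genes known as antagonists of DAF-2 (ins-1, ins-17 and ins-18) held 0 calls of 3, where 40.8% of all tested genes were called. A list of 3 cannot show a share apart from that. The most abundant of them, ins-17, had 143, 99, 109 and 143 counts in DMSO and 83, 94, 93 and 115 with bromhexine. In CPM all 4 bromhexine libraries (4.14 to 4.40) lay below the 4 of DMSO (4.44 to 5.37), but the log2 fold change of -0.22 ± 0.17 did not pass (adjusted p = 0.326, edgeR). For ins-1, the member known for salt learning, it was 0.46 ± 0.40 (interval -0.38 to 1.3) and for ins-18 0.68 ± 0.43 (-0.24 to 1.59).

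Both other genes that fell are on neither list. The gene ins-37 (WBGene00002120, II, start 13835101, end 13836107, minus strand) had 53, 42, 51 and 57 counts in DMSO and 11, 12, 16 and 19 with bromhexine. Its groups were wide apart and tight, at 2.05 ± 0.226 and 0.634 ± 0.0991 CPM, with a log2 fold change of -1.68 ± 0.26 (adjusted p = 0.000217 in edgeR). The gene ins-34 had 294, 177, 191 and 158 counts in DMSO and 59, 59, 88 and 149 with bromhexine. Its groups came close but did not overlap in CPM (5.94 to 10.3 against 2.63 to 5.70), with a log2 fold change of -1.09 ± 0.22 (adjusted p = 0.00153 in edgeR). The exons of ins-34 share 82 bases with nkcc-1 on the other strand, and whether counting used strand is not given in the sources used here. The transcript of nkcc-1 did not fall with it, at 102 ± 8.93 CPM in DMSO and 127 ± 12 with bromhexine (log2 fold change 0.32 ± 0.10, adjusted p = 0.0186, edgeR).

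**Figure D2:**
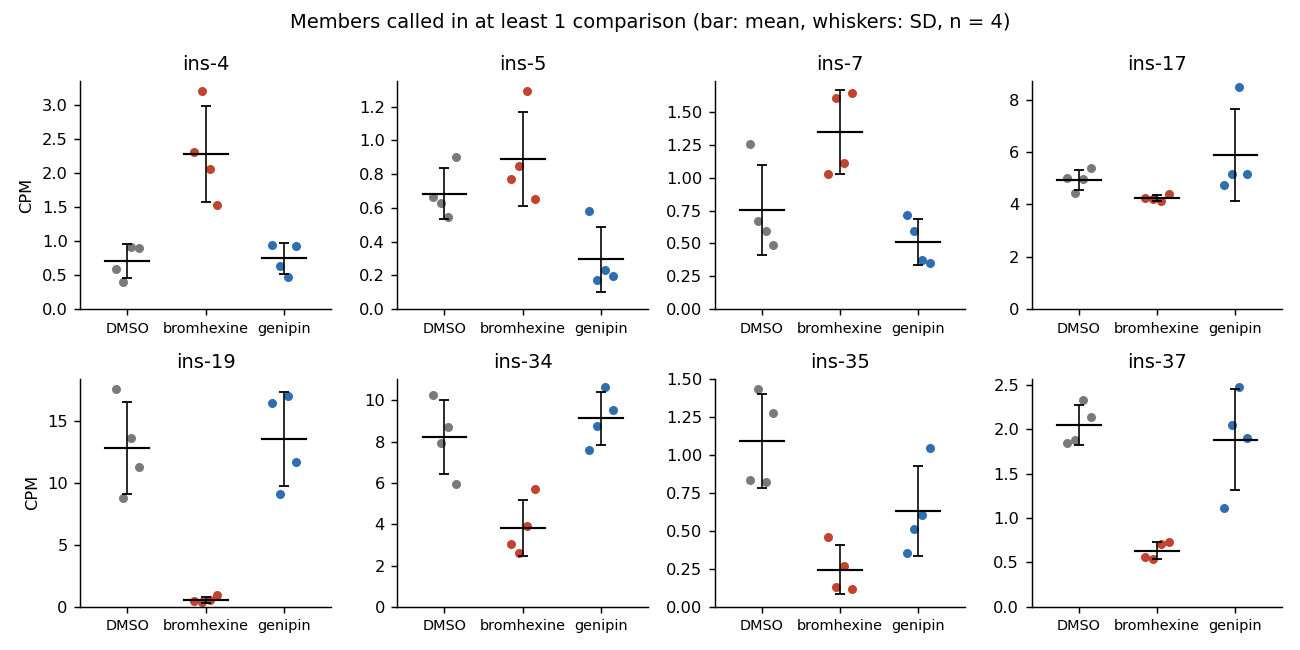
CPM of the 8 members called in at least 1 of the 3 comparisons, by group, with 1 point per library, a bar at the mean and whiskers of 1 SD (n = 4). With bromhexine ins-19 is at 0.568 ± 0.245 CPM against 12.8 ± 3.73 in DMSO, and ins-4 at 2.27 ± 0.701 against 0.703 ± 0.248, while the genipin points of both lie within or near the DMSO range.

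Members that lie beside each other did not all share a call. With a largest gap of 20 kb, 25 of the 39 members fall into 7 clusters. A cluster on chromosome II (start 5988524, end 6011321) holds ins-2, ins-3, ins-4, ins-5, ins-6 and ins-20, the last of which was not tested. In it ins-4 was the 1 gene called with bromhexine against DMSO. Its next neighbor ins-5, 548 bases away on the same strand, had 19, 14, 12 and 24 counts in DMSO and 15, 19, 29 and 17 with bromhexine, with groups that overlapped (log2 fold change 0.36 ± 0.37). The log2 ratio of ins-4 to ins-5 counts, with 0.5 added to each, was higher by 1.34 with bromhexine than in DMSO. That difference did not pass (p adjusted over 5 such ratios = 0.0571, exact permutation test). At 4 libraries per group the smallest p this test can give is 0.0286 before adjustment. The ratios of ins-4 to ins-6 and of ins-19 to ins-31 reached that floor, and their adjusted p was also 0.0571. So the test could hardly pass at this group size, and it does not decide whether ins-4 and ins-5 moved apart. In the largest cluster, of 7 genes on chromosome I (start 14012369, end 14037777), 0 of the 4 tested members (ins-26, ins-27, ins-28 and ins-30) were called. One of them, ins-28, stood at 14 to 22 counts in each of the 8 libraries (log2 fold change 0.03 ± 0.26). Another, ins-26, was called without DMSO replicate 2 (adjusted p = 0.0228, edgeR). Over all tested genes 40.8% were called, and so few members per cluster cannot show a share apart from it.

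Among the 16 untested members with a count, the group total, not scaled for depth, was higher with bromhexine than in DMSO for 8, lower for 5 and equal for 3. With bromhexine ins-12 had 7, 15, 9 and 13 counts and in DMSO 2, 5, 6 and 7. Likewise ins-33 had 7, 9, 7 and 11 against 0, 7, 3 and 2, and ins-20 had 0, 3, 2 and 3 against 0 in all 4. In the other direction ins-22 had 5, 2, 2 and 1 counts with bromhexine against 5, 5, 7 and 10 in DMSO, ins-11 had 10 in all against 17, and ins-21 had 0 in all against 4. A fit with no filter, which took in 16 more members, called none of them (0 at an adjusted p of 0.05, 3 at an unadjusted p under 0.05, smallest adjusted p = 0.0566, edgeR).

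The summed level of the 39 members was 42.1 ± 4.72 CPM in DMSO (37.4 to 48.0) and 27.4 ± 2.44 with bromhexine (25.1 to 30.5), groups that did not overlap. Without ins-19 the sums were 29.3 ± 2.16 (26.1 to 30.7) and 26.9 ± 2.30 (24.5 to 29.6), which did overlap. With bromhexine the first place per kb passed to ins-17 (7.62 ± 0.199 CPM per kb) and ins-34 (7.53 ± 2.69), which overlapped, and ins-19 took the 12th place (1.57 ± 0.675).

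**Figure D3:**
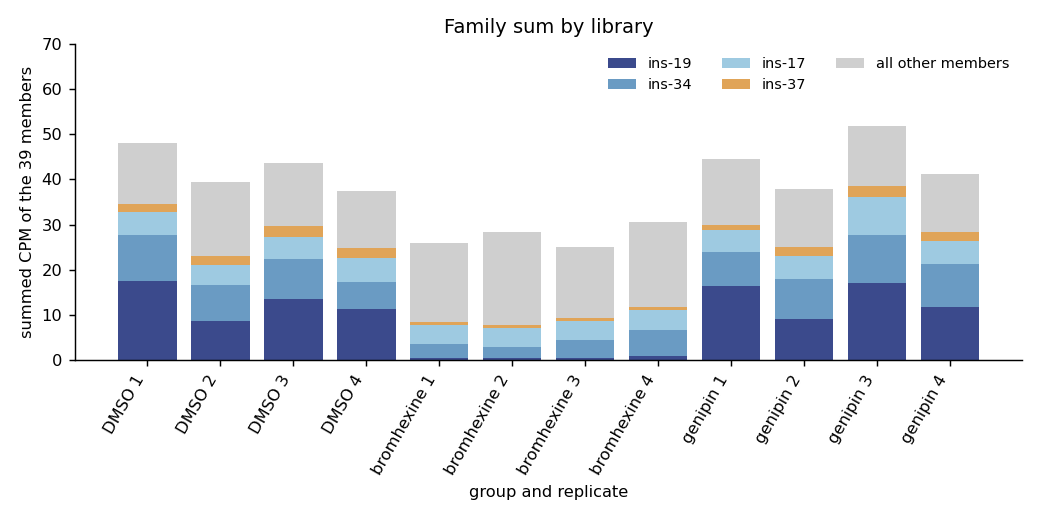
Summed CPM of the 39 members in each library, stacked as ins-19, ins-34, ins-17, ins-37 and all other members. The DMSO bars reach 37.4 to 48.0 and the bromhexine bars 25.1 to 30.5, in which the ins-19 layer is nearly gone, and the genipin bars reach 37.96 to 51.9.

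The comparison of genipin with DMSO called 0 of the 20 members, where 0.0365% of all tested genes were called (5 genes, 0.0292% higher and 0.0073% lower). In DESeq2 it was also 0, and 1 member, ins-5, had an unadjusted p under 0.05 in edgeR. No member had groups that did not overlap, against 3.11% of all genes. The gene ins-19 had 368, 214, 364 and 300 counts with genipin, and its 9.12 to 16.98 CPM lay inside the DMSO range of 8.75 to 17.5, with a log2 fold change of 0.08 ± 0.23 with an interval of -0.41 to 0.56. Intervals of the 20 members, not adjusted for the number of genes, had half-widths of 0.36 to 1.83 on the log2 scale. After adjustment over all tested genes, changes of that size or larger in single members could go uncalled. For ins-5 the counts were 13, 4, 5 and 5 with genipin, against 12 to 24 in DMSO, and replicate 1 was the high one. Its log2 fold change was -1.22 ± 0.41 (adjusted p = 0.838, edgeR), and -1.77 ± 0.41 (adjusted p = 0.399) without genipin replicate 1. The agonist genes ins-7 (-0.58 ± 0.37) and ins-35 (-0.77 ± 0.40, counts of 8, 12, 13 and 27) did not pass either. Without genipin replicate 1 ins-19 was at -0.03 ± 0.25, ins-7 at -0.79 ± 0.41 and ins-35 at -0.59 ± 0.42, and 0 members were called.

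**Figure D4:**
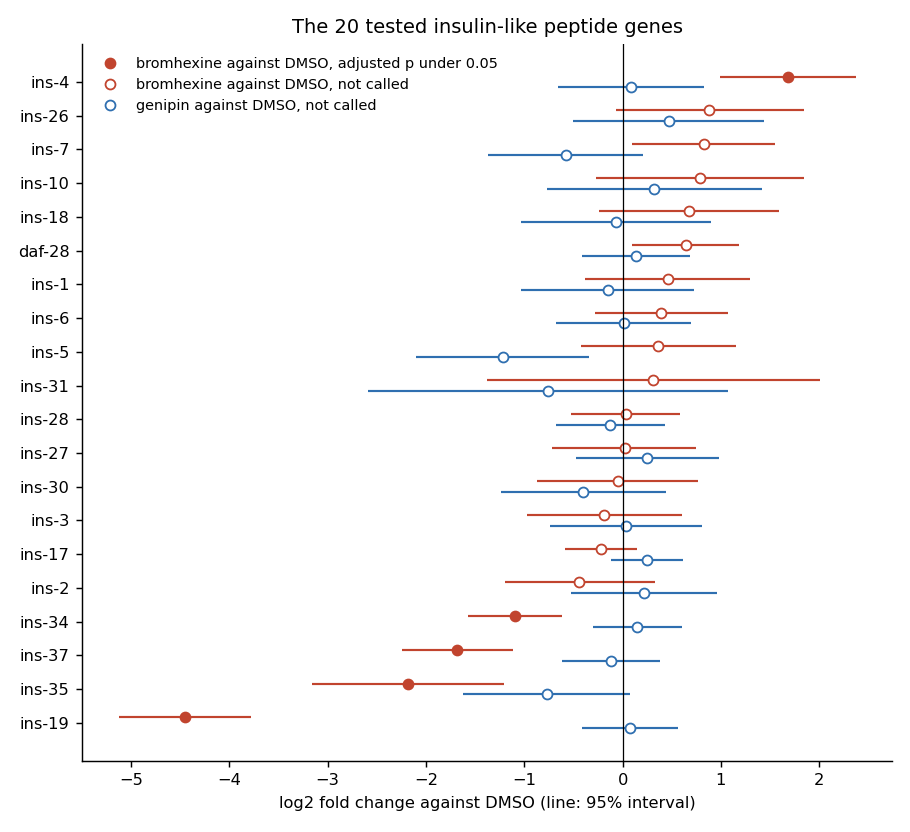
Log2 fold change against DMSO of the 20 tested members with bromhexine (red) and genipin (blue), ordered by the bromhexine value, with lines for 95% intervals and filled points for an adjusted p under 0.05. With bromhexine 5 points are filled, from ins-19 at -4.45 to ins-4 at 1.68, and with genipin none is, with ins-5 farthest from 0 at -1.22; both series share the 4 DMSO libraries.

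Bromhexine against genipin compares the compounds directly, at doses that differ (100 and 200 µM). It uses the same 4 bromhexine libraries as the comparison with DMSO, so both share them. Of the 20 members 8 were called, 3 higher and 5 lower with bromhexine, which is 40.0% against 34.5% of all tested genes, and 7 had groups that did not overlap (27.7% of all genes). The 5 genes called against DMSO had these values: ins-19 (log2 fold change -4.53 ± 0.32), ins-37 (-1.55 ± 0.27), ins-34 (-1.24 ± 0.22), ins-35 (-1.41 ± 0.48) and ins-4 (1.59 ± 0.32). Without genipin replicate 1 these were -4.42, -1.74, -1.32, -1.60 and 1.72, all with an adjusted p under 0.05 in edgeR. For ins-35 the groups overlapped, and without genipin replicate 4, whose 27 counts were the highest, its value was -1.04 ± 0.49 (adjusted p = 0.127, edgeR). Its call was also lost without genipin replicate 3 or any of bromhexine replicates 2, 3 and 4.

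Another 3 members differed between the compounds. The gene ins-5 stood at 15, 19, 29 and 17 counts with bromhexine and 13, 4, 5 and 5 with genipin, groups that did not overlap in CPM (0.889 ± 0.280 against 0.294 ± 0.192). Its log2 fold change was 1.59 ± 0.41 (adjusted p = 0.00858, edgeR), and 2.13 ± 0.41 without genipin replicate 1. The gene ins-7 stood at 20, 36, 25 and 43 counts against 16, 14, 8 and 9 with genipin. Those groups did not overlap either (1.35 ± 0.322 against 0.508 ± 0.176 CPM), with a log2 fold change of 1.41 ± 0.36 (adjusted p = 0.00802 in edgeR) and of 1.61 ± 0.40 without genipin replicate 1. DMSO lay between both compounds for ins-5 and ins-7, and neither compound alone was called against it. For ins-17 the counts with genipin were 106, 121, 182 and 133, and replicate 3 stood apart at 8.49 CPM against 4.72 to 5.17 in the other 3. The difference of -0.47 ± 0.17 (adjusted p = 0.0487, edgeR) became -0.24 ± 0.13 (adjusted p = 0.198) without that library and -0.56 ± 0.18 (adjusted p = 0.0301) without genipin replicate 1. Its call was lost under 15 of 20 alternatives.

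The receptor and its cascade, the target of these peptides, changed by small amounts with bromhexine against DMSO. Of 11 genes from daf-2 to daf-16, 5 rose and 1 fell, with a median log2 fold change of 0.21 (all tested genes 0.002), where 19% of all tested genes rose and 21.8% fell. The receptor gene daf-2 rose from 129 ± 11.9 to 186 ± 14.3 CPM (0.53 ± 0.10, adjusted p = 0.00122, edgeR), daf-16 by 0.37 ± 0.08 and the kinase gene age-1 by 0.39 ± 0.09 on the log2 scale. Without DMSO replicate 3 or bromhexine replicate 1, 3 of the 11 were called. Among 8 genes that DAF-16 is known to raise, 7 were tested and 6 rose, with a median of 0.93, among them the metallothionein gene mtl-1 (1.49 ± 0.14), the superoxide dismutase gene sod-3 (1.65 ± 0.18) and the lysozyme gene lys-7 (1.60 ± 0.18). The small heat shock protein gene hsp-12.6 was not called (-0.11 ± 0.46), and scl-1, which was not tested, was at 0 in all 4 bromhexine libraries. Genipin against DMSO called 0 of the 11 cascade genes and 0 of those 7, with and without replicate 1. With all 12 libraries it called 0.0365% of all tested genes, so 0 in such short lists says little about them.

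Genes that process and release such peptides went both ways. Of 11 tested, 5 rose and 3 fell with bromhexine against DMSO, where 19% of all tested genes rose and 21.8% fell. Their median log2 fold change was 0.30 (all tested genes 0.002). The carboxypeptidase gene egl-21, which trims cleaved prohormones, rose from 26.1 ± 1.34 to 42.6 ± 5.36 CPM (0.70 ± 0.10, adjusted p = 0.000111, edgeR), and the dense-core vesicle gene ida-1 by 0.62 ± 0.11 on the log2 scale. In the other direction hid-1, needed for the maturation of dense-core vesicles, fell from 72.5 ± 8.30 to 38.5 ± 5.95 CPM (-0.91 ± 0.11, adjusted p = 2.71e-05, edgeR). With genipin against DMSO 0 of 11 were called, with and without replicate 1, where 0.0365% of all tested genes were called with all 12 libraries.

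Markers of several cell types and of early embryos moved in part. Over all tested genes 19% rose and 21.8% fell with bromhexine against DMSO, with a median log2 fold change of 0.002. Of 12 neuron markers 1 rose (unc-104, 0.57 ± 0.17) and 2 fell (unc-119, -0.74 ± 0.14, and snb-1, -0.14 ± 0.05) with bromhexine, with a median of -0.04, summed levels of 268 to 279 CPM in DMSO and 233 to 263 with bromhexine, and none at 0. Of 6 markers of the ASI and ASJ neurons 2 were tested: gpa-4 fell (-1.16 ± 0.22) and daf-7 rose (0.73 ± 0.20), summed levels were 9.32 to 12.59 and 6.50 to 10.4 CPM, and str-3 was at 0 in DMSO. Of 8 epidermis markers 5 fell and 1 rose, with a median of -0.85, 201 to 212 CPM in DMSO and 174 to 185 with bromhexine, none at 0 and the collagen gene rol-6 farthest (-4.87 ± 0.67). Much of the neuron sum came from snb-1 (188 ± 3.47 CPM in DMSO, 171 ± 4.30 with bromhexine). Much of the epidermis sum came from lin-26, the 1 that rose (109 ± 2.87 and 123 ± 9.39 CPM). Body wall muscle (4 of 6 higher, 690 to 1263 and 1278 to 1639 CPM) and germ line (6 of 6 higher, 2106 to 2534 and 2622 to 3222 CPM) had no marker at 0. Of 6 tested early embryo markers 1 fell (hlh-1, -0.71 ± 0.19), with 14.5 to 19.7 and 8.88 to 16.5 CPM and med-1 at 0 in DMSO. The part of any of these cell types in the falls of ins-19, ins-34 and ins-37 and in the rise of ins-4 was not tested.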

How the data were processed

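Per the labels' protocols, RNA from whole worms was read in pairs of 150 nt. FastQC, STAR 2.7.11b, RSEM 1.3.3 and the build WBcel235 are named in the submitters' processing notes. The authors deposited expected counts per gene, the estimate by which RSEM divides reads that match several genes, and 2.06% of all values and 0% of the members' values carried decimals. Annotation release and strand setting: not given in the sources used here. Names, positions and exon lengths came from Ensembl release 115 of WBcel235, in which all 46926 genes were found.

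Rounded expected counts went into edgeR 4.0.16 (R 4.3.3): filterByExpr on the 3 groups (13695 genes), TMM scaling and 1 quasi-likelihood fit with the group as its only term. Benjamini-Hochberg adjustment covered all tested genes, with calls at an adjusted p under 0.05. Each SE is the log2 fold change divided by the root of F. CPM use TMM-scaled library totals. The code of the fit was checked on simulated counts with few changed genes, which does not test the calls made here. Named members are those called in any comparison, those of the agonist and antagonist lists and the 5 highest per kb in DMSO; ins-11, ins-12, ins-20, ins-21, ins-22, ins-26, ins-28, ins-31, ins-33 and ins-39 were named after their values were seen. The members, lists and tests were chosen with earlier results of these data known, and support nothing that those results already showed. Alternatives were DESeq2 1.42.0, other scalings, filters, fits and thresholds, and each library left out in turn.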

Additional observations from a re-analysis of the deposited data

Results flagged for a closer look

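In 4 of 60 group values of the tested members 1 library lay apart from the other 3 of its group, by more than Dixon's 95% critical gap, which chance alone passes in about 1 of 20 groups. With genipin, ins-5 stood at 0.579 CPM (13 counts) in replicate 1 and at 0.170 to 0.233 in the others. With genipin, ins-6 stood at 0.327 CPM (7 counts) in replicate 3 and at 0.894 to 0.981 in the others. With genipin, ins-17 stood at 8.49 CPM (182 counts) in replicate 3 and at 4.72 to 5.17 in the others. In DMSO, ins-26 stood at 1.17 CPM (26 counts) in replicate 2 and at 0.349 to 0.456 in the others, and without it ins-26 was called with bromhexine against DMSO (log2 fold change 1.42 ± 0.44, adjusted p = 0.0228, edgeR, against 0.88 ± 0.45 with it).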

How the results depend on the processing

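Under 20 alternatives the number of members called stayed within 4 to 7 for bromhexine against DMSO (5 to 7 with 1 library left out), at 0 for genipin against DMSO and within 6 to 8 for bromhexine against genipin (6 to 8 with 1 library left out). All 5 members called with bromhexine against DMSO were called again in each alternative that tested them; at 1 CPM in 4 libraries ins-35 was not tested and the count was 4. Over all genes, genipin against DMSO called 5, with 31 in DESeq2, 17 with no filter, 3 with only the 8 libraries compared, 2 at an adjusted p under 0.01 and 2 to 11 with 1 library left out. At an adjusted p under 0.01 bromhexine called 3188 against DMSO (5581 at 0.05) and 2458 against genipin (4727). Called values changed sign in 0 of 1167 recomputed member values, and values with no call did in 39. Between the compounds, ins-17 lost its call under 15 alternatives and ins-35 under 8, and the cause was not tested. The replicate number as a block gave 5, 0 and 6 called members, the last without ins-17 (adjusted p = 0.0635) and ins-35 (adjusted p = 0.0631). The numbers share no stated origin, and the deviations of libraries numbered 1 to 4 correlated at 0.004, -0.095, -0.013 and -0.125 between DMSO and bromhexine and at -0.048, -0.155, -0.035 and -0.087 between bromhexine and genipin. Between DMSO and genipin they correlated at 0.016, 0.296, 0.248 and 0.18, above 0.1 for numbers 2 to 4 but not for 1, so no comparison met the rule that every pair exceed 0.1. Depth limits single members: at a median of 20 counts the members' standard errors (0.35) exceed those of all genes (0.13).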

Other observations

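The tested member ins-31 differed widely between DMSO libraries, with 22, 33, 3 and 1 counts in replicates 1 to 4. After these values were seen, they were set beside the summed counts of the 31 genes named msp followed by a number, which encode major sperm proteins. Those sums were 572, 528, 115 and 79 counts in the same 4 libraries. With bromhexine ins-31 had 22, 7, 18 and 20 counts and the msp genes 838, 261, 519 and 992. With genipin ins-31 had 0, 21, 5 and 7 counts and the msp genes 133, 608, 40 and 31. In each group the library with the most msp counts or the next to it held the most ins-31 counts, a loose rule worded after the values were seen. The match was not complete, as genipin replicate 1, with the next to highest msp sum of its group (133), had 0 ins-31 counts. Genipin replicate 4, with the lowest msp sum of the group (31), had the next to highest ins-31 count (7). Whether both share a source was not tested.

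The untested member ins-39 had 8, 5, 5 and 5 counts with bromhexine, 2, 2, 2 and 4 in DMSO and 1, 5, 1 and 0 with genipin.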
